A study of Mus musculus with 14 samples.

Results

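NF-kB is a family of dimeric transcription factors that switches on inflammatory genes, and its subunits and feedback inhibitors were followed in the colon of mice that lack the glucocorticoid receptor (GR) in the intestinal epithelium. The set was fixed by name and held 10 genes, namely the subunit genes Rela, Relb, Rel, Nfkb1 and Nfkb2 and the inhibitor genes Nfkbia, Nfkbie, Nfkbid, Nfkbiz and Tnfaip3. Probes were assigned by matching the accession printed in the scanner files to a gene table, which gave a probe for 9 of the 10 genes, among 19096 genes matched on the array. A total of 8 members passed the filter on dim probes, among 15537 genes tested, and all 8 were well above background on all 14 arrays. No probe matched Nfkb1 by accession, and it was not analysed here. The probe of Rel was well above background on 2 of 14 arrays and was not tested.

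All mice were female C57BL/6 mice, 4 to 6 months old and fed normal chow. Flox mice carry GR fl/fl alleles without a Cre and served as controls, and GR iKO mice carry GR fl/fl alleles with Villin-cre, a transgene active in the intestinal epithelium, so immune and stromal cells of GR iKO colons still carry an intact receptor gene. Mice drank regular water or water with 2.5% dextran sodium sulfate (DSS), a polymer that damages the lining of the colon and so causes colitis, for 7 days. There were 4 Flox and 4 GR iKO samples on water and 3 Flox and 3 GR iKO samples on DSS, each hybridized to its own 1-colour array. The labels number the samples within a group and do not state whether RNA was pooled, so p-values measure the spread between these samples. RNA came from whole colon, in which a change in the number of cells of a type and a change in RNA per cell cannot be told apart.

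NF-kB dimers wait in the cytoplasm bound to inhibitor proteins of the IkB family. Signals from receptors for tumor necrosis factor, interleukin-1 and bacterial products activate a kinase complex that marks IkB for destruction, and the freed dimers enter the nucleus. Among the genes they switch on are several of their own inhibitors, which closes a feedback loop, and in the gut this pathway drives both epithelial defence and the cytokine output of immune cells. GR, when bound by a glucocorticoid, is known to restrain NF-kB-dependent transcription.

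Since NF-kB is known to act on genes of its own inhibitors, the members' promoter sequences were searched for the NF-kB consensus. RefSeq promoter windows (build GRCm38.p6, 250 bases before to 50 bases after a transcription start, written 5′ to 3′ on the strand of the gene) were found for 7 members, in 12 windows, and not for Nfkb1, Relb and Nfkbiz. The consensus was searched for on both strands and matched in at least 1 window of 6 of the 7 members, all but Rela, whereas 5.14% of all 27025 genes and 4.51% of all 32851 windows of this length held a match. The consensus for a glucocorticoid response element matched in 0 of the 7 members and in 0.104% of all genes. A match this rare, in 28 of 27025 genes, was hardly to be found among 7 genes. The search therefore does not show that the members lack such elements. The members whose level changed with DSS and whose window held a match are shown, at the start with the most matches where a gene had several, with the matched bases in capitals.
Nfkb2 (chr19:46304487-46304786, + strand): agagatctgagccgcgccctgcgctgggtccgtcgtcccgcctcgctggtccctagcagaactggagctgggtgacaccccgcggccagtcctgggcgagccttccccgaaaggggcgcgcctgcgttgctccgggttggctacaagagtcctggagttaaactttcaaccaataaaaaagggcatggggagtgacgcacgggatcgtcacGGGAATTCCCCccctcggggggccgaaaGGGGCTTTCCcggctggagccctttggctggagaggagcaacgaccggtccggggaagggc
Nfkbia (chr12:55492598-55492897, - strand): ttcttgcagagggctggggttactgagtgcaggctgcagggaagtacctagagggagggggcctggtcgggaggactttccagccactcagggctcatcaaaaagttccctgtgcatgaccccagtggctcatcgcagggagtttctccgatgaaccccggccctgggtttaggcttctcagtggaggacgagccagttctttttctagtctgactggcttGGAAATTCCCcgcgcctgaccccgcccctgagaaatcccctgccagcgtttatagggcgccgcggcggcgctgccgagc
Nfkbie (chr17:45555450-45555749, + strand): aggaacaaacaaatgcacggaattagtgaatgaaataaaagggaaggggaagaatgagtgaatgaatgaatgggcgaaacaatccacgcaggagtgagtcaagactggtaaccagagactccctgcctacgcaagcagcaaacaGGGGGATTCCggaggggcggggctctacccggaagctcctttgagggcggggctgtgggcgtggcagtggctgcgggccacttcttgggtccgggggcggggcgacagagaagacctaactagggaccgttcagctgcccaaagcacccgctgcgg
Nfkbid (chr7:30422156-30422455, + strand): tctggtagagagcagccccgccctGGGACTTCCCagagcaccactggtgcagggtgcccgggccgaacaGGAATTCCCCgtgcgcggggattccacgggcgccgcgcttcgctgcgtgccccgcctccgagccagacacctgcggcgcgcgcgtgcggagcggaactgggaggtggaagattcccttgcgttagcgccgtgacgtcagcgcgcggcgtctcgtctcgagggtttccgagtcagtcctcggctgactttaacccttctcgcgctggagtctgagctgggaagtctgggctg
Tnfaip3 (chr10:19015361-19015660, - strand): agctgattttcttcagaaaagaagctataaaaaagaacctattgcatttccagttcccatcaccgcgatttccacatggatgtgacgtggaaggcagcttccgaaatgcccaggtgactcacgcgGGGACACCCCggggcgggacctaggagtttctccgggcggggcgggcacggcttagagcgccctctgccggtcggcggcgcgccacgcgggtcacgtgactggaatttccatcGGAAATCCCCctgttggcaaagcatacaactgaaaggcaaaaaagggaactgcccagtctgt
Counted from the start, with bases before it negative, Nfkb2 held a pair of overlapping matches, from −39 to −30 and from −38 to −29, and another from −11 to −2. The match of Nfkbia ran from −29 to −20 and that of Nfkbie from −106 to −97. The matches of Nfkbid ran from −226 to −217 and from −181 to −172, and those of Tnfaip3 from −125 to −116 and from −12 to −3. The windows of Nfkbid and Tnfaip3 that are not shown held no match, and those of Nfkb2 held fewer matches than the window shown. The matches describe the sequence and do not show binding.

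A level here is the log2 of a probe's signal over the array's 75th percentile (the signal below which 75% of its probes lie). A level of 0 is the signal of that percentile, levels of 1 probe are compared between arrays, and levels of different probes are not compared. Differences are on the same log2 scale and come from limma, fitted over all 14 arrays with 1 estimate of the spread per probe. A gene was called when its Benjamini-Hochberg adjusted p over all 29520 probes tested was under 0.05. The 75th percentile ranged from 262 to 1003 intensity units and between 62.6% and 71.3% of an array's probes were well above background. The median SD of a probe was 0.18 for Flox and 0.17 for GR iKO with water, and 0.26 for Flox and 0.34 for GR iKO with DSS. All 7 epithelial markers were well above background in every group. Nr3c1, the GR gene, stood on its brightest probe, A_52_P138090, at 1.19 ± 0.14 (SD, n = 4) for Flox and 0.39 ± 0.16 (SD, n = 4) for GR iKO with water and at 1.27 ± 0.20 (SD, n = 3) and 0.43 ± 0.05 (SD, n = 3) with DSS, with no overlap between genotypes. The difference of Nr3c1 was −0.80 on water (adjusted p 0.0968) and −0.83 on DSS (adjusted p 0.00717), the latter turning to 0.39 when arrays were scaled to spike-in transcripts. On other probes of Nr3c1, the differences on water and DSS were −0.88 and −0.81 for A_52_P63106 and −0.84 and −0.86 for A_52_P254174. For A_51_P355693 they were −1.07 and −0.40. Of these only A_52_P63106 on DSS was called (adjusted p 0.0109). The genotypes overlapped on water for A_52_P254174 and on DSS for A_51_P355693. Where the probes of Nr3c1 lie relative to the floxed part was not determined here, and a probe outside that part would not check the deletion.

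**Figure D1:**
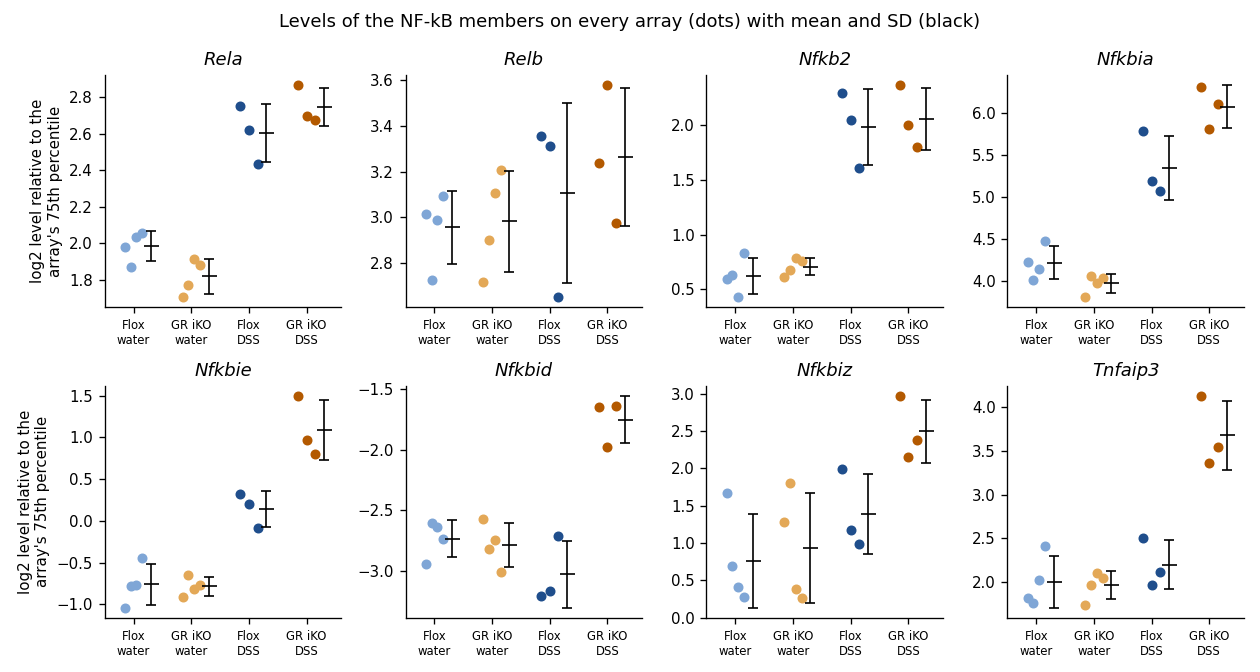
Level of each tested member (log2 signal relative to the array's 75th percentile, vertical axis with its own range in each panel) on every array of the 4 groups, with the mean and SD of a group in black. Rela is shown by its brighter probe. Scaling to spike-in transcripts shifts this scale as described in the text. On it, Rela, Nfkb2, Nfkbia and Nfkbie lay higher on all 6 DSS arrays than on any water array. Nfkbia, Nfkbie, Nfkbid, Nfkbiz and Tnfaip3 lay higher on the 3 GR iKO DSS arrays than on the 11 others.

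To describe how colitis moved the NF-kB members in control mice, Flox colons on DSS were compared with Flox colons on water. A total of 4 of 8 tested members rose relative to the bulk of the array, namely Nfkb2, Nfkbia, Nfkbie and Rela, and 0 fell, whereas all 8 were called lower when arrays were scaled to spike-in transcripts. Over all probes tested, 24.4% were called higher, beside 50% of the members, and 28.2% were called lower. The median change of the 8 members was 0.62, beside a median of −0.09 over all probes tested. Scaling to spike-in transcripts put the median change of all probes at −2.44, and relative to that median the 4 members were higher by 0.70 to 1.45. All other directions of change with DSS given here are likewise relative to the bulk of the array.

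The same comparison in GR iKO mice called 7 of 8 tested members higher, all but Relb, and 0 lower, of which only Nfkbia was called when arrays were scaled to spike-in transcripts. Of all probes tested, 22% were called higher, beside 87.5% of the members, and 22.5% lower. The median change of the members was 1.46, beside −0.02 over all probes. That scaling put the median of all probes at −0.98 and Rela at −0.03, and relative to that median the 7 members were higher by 0.95 to 2.12.

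Nfkb2 encodes the precursor of the partner subunit of RelB in the alternative NF-kB pathway. On water it stood at 0.59, 0.63, 0.43 and 0.83 in the 4 Flox samples and at 0.61, 0.67, 0.79 and 0.76 in the 4 GR iKO samples. On DSS it stood at 2.30, 2.05 and 1.61 for Flox and at 2.37, 2.00 and 1.80 for GR iKO. All DSS samples lay above all water samples, and the genotypes overlapped under both conditions. Nfkb2 rose by 1.36 (SE 0.17, adjusted p 4.84e-05), or 2.58-fold, in Flox and by 1.35 (SE 0.17, adjusted p 8.42e-05), or 2.55-fold, in GR iKO. The GR iKO change minus the Flox change was −0.01, with a 95% confidence interval of −0.55 to 0.52. A difference within that interval is not excluded by these arrays.

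Rela encodes the subunit that, as a dimer with the product of Nfkb1, carries most classical NF-kB activity, and it was measured by a pair of probes. On its brighter probe, A_51_P385993, it stood at 1.98, 1.87, 2.03 and 2.06 for Flox and 1.71, 1.77, 1.91 and 1.88 for GR iKO with water. On DSS this probe stood at 2.75, 2.62 and 2.44 for Flox and at 2.87, 2.70 and 2.68 for GR iKO. As for Nfkb2, DSS samples did not overlap with water samples and the genotypes overlapped on DSS. Rela rose by 0.62 (SE 0.11, adjusted p 0.000499) in Flox and by 0.93 (SE 0.11, adjusted p 4.43e-05) in GR iKO. The dimmer probe, A_52_P186119, gave changes of 0.62 (adjusted p 0.00639) and 0.74 (adjusted p 0.00269).

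Relb encodes the RelB subunit of the alternative pathway and had the smallest change of the tested members in each genotype. Its level on water ranged from 2.72 to 3.09 for Flox and from 2.71 to 3.21 for GR iKO, and with DSS it ranged from 2.65 to 3.35 for Flox and from 2.98 to 3.58 for GR iKO, with all 4 groups overlapping. The change with DSS was 0.15 (95% confidence interval −0.29 to 0.59, adjusted p 0.552) in Flox and 0.28 (−0.15 to 0.72, adjusted p 0.277) in GR iKO. For Rel, which encodes the c-Rel subunit of lymphoid and myeloid cells, only Flox water replicate 2, at −5.64, and GR iKO DSS replicate 1, at −5.09, were well above background, so no group can be given a level. B cells express both genes, and the summed signal of 6 B and plasma cell markers, in units of the 75th percentile, was 70.4 to 113 on water, 9.68 to 29.3 in Flox with DSS and 19.7 to 39.2 in GR iKO with DSS. Their part in the levels of Relb and Rel was not tested.

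Nfkbia encodes IkB-alpha, the inhibitor that is destroyed and remade in each round of classical NF-kB activation, and the bases its promoter shares with the NF-kB consensus are shown above. Its level was 4.24, 4.01, 4.15 and 4.48 for Flox and 3.82, 4.07, 3.98 and 4.04 for GR iKO with water. On DSS it was 5.79, 5.19 and 5.08 for Flox and 6.31, 5.81 and 6.11 for GR iKO. The DSS samples of both genotypes lay above all water samples, and the lowest GR iKO sample on DSS lay just above the highest Flox sample. Nfkbia rose by 1.13 (SE 0.18, adjusted p 0.000284), or 2.19-fold, in Flox and by 2.10 (SE 0.18, adjusted p 6.04e-06), or 4.29-fold, in GR iKO, the largest change of the 8 members in GR iKO.

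Nfkbie encodes IkB-epsilon, an inhibitor that is remade later in the response. It stood at −1.04, −0.79, −0.77 and −0.45 for Flox and at −0.91, −0.64, −0.82 and −0.77 for GR iKO with water. On DSS it stood at 0.32, 0.21 and −0.09 for Flox and at 1.49, 0.97 and 0.80 for GR iKO. The groups formed 3 levels that did not overlap, with both water groups lowest, Flox on DSS between and GR iKO on DSS highest. Nfkbie rose by 0.91 (SE 0.18, adjusted p 0.00121) in Flox and by 1.87 (SE 0.18, adjusted p 1.26e-05) in GR iKO.

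Nfkbid encodes IkB-NS, a nuclear member of the IkB family that acts on promoters rather than holding NF-kB in the cytoplasm. Its level was −2.94, −2.60, −2.64 and −2.74 for Flox and −2.57, −2.82, −2.74 and −3.00 for GR iKO with water. On DSS it was −3.21, −3.16 and −2.71 for Flox and −1.65, −1.98 and −1.64 for GR iKO. The 3 GR iKO samples on DSS lay above the 11 others, whereas Flox samples on DSS overlapped with water. Nfkbid rose in GR iKO by 1.03 (SE 0.16, adjusted p 0.000276), and in Flox the change was −0.29 (SE 0.16, adjusted p 0.133). Without Flox DSS replicate 4, the highest Flox sample on DSS, the Flox change of Nfkbid was −0.45 and was called lower (adjusted p 0.0273).

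Nfkbiz encodes IkB-zeta, a nuclear IkB protein that cooperates with NF-kB at a subset of inflammatory promoters and is known to act in the intestinal epithelium. It stood at 1.67, 0.69, 0.41 and 0.28 for Flox and at 1.28, 1.80, 0.38 and 0.27 for GR iKO with water, the widest spread of the 8 members there. On DSS it stood at 2.00, 1.17 and 0.99 for Flox and at 2.97, 2.15 and 2.38 for GR iKO. Flox samples on DSS overlapped with water, and GR iKO samples on DSS lay above all others. Nfkbiz rose in GR iKO by 1.57 (SE 0.43, adjusted p 0.0106), and in Flox the change was 0.62 (SE 0.43, adjusted p 0.241). When water and DSS arrays were weighted separately, as described below, the GR iKO change was no longer called (adjusted p 0.0559).

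Tnfaip3 encodes a ubiquitin-editing enzyme that shuts off signalling from the tumor necrosis factor receptor to the IkB kinases, and its loss in the gut is known to sensitize mice to colitis. Its level was 1.82, 1.76, 2.03 and 2.41 for Flox and 1.75, 1.97, 2.10 and 2.05 for GR iKO with water. On DSS it was 2.51, 1.97 and 2.12 for Flox and 4.12, 3.36 and 3.54 for GR iKO. As for Nfkbid, the 3 GR iKO samples on DSS lay above the 11 others and the Flox samples on DSS overlapped with water. Tnfaip3 rose in GR iKO by 1.71 (SE 0.21, adjusted p 6.37e-05), or 3.27-fold, and in Flox the change was 0.20 (SE 0.21, adjusted p 0.458).

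**Figure D2:**
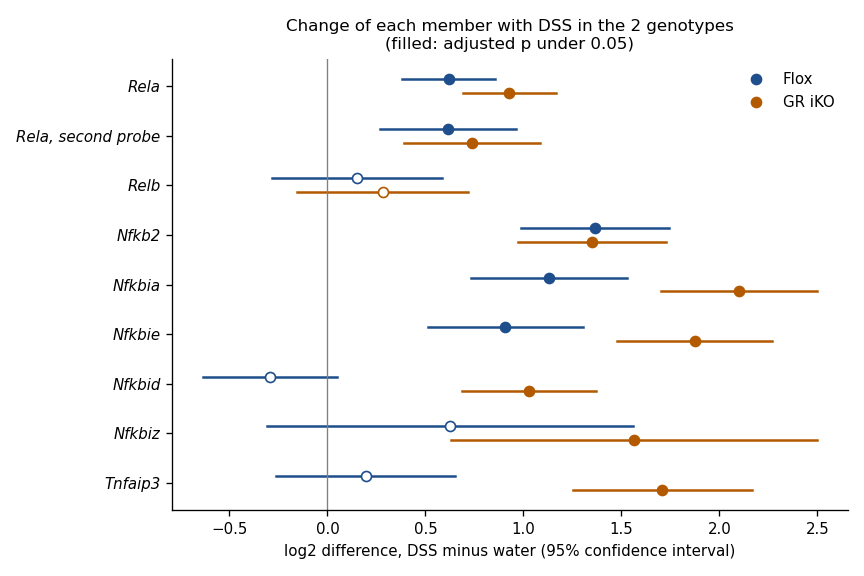
Change with DSS (log2 difference, DSS minus water, horizontal axis) of each tested member in Flox (blue) and GR iKO (orange), with 95% confidence intervals from the fit over 14 arrays and filled points where the adjusted p was under 0.05. Nfkb2 changed by 1.36 and 1.35, whereas Tnfaip3 changed by 0.20 in Flox and 1.71 in GR iKO, all relative to the bulk of the array, and scaling to spike-in transcripts turned the Flox changes negative.

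Genotypes were first compared without injury. On water, 0 of 8 tested members were called by limma between GR iKO and Flox, and 0 had an unadjusted p under 0.05. Of all probes tested, 0.00339% were called, which is 1 probe. Differences of the members ranged from −0.25 for Nfkbia (95% confidence interval −0.61 to 0.12) to 0.17 for Nfkbiz (−0.69 to 1.03), with a median of −0.03 beside −0.01 over all probes. With separate weights, Rela was lower in GR iKO by an unadjusted p of 0.0438 and an adjusted p of 1.00.

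To find which members differed between genotypes in injured colon, GR iKO was then compared with Flox on DSS. In the fit over 14 arrays, the inhibitors Tnfaip3, Nfkbid, Nfkbie and Nfkbia were higher in GR iKO, 4 of 8 members, and 0 were lower, whereas all 8 were called higher when arrays were scaled to spike-in transcripts. Of all probes tested, 6.44% were called higher, beside 50% of the members. The median difference of the members was 0.83, beside 0.03 over all probes.

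The differences on DSS, GR iKO minus Flox, were 1.48 for Tnfaip3 (SE 0.22, adjusted p 0.00648), 1.27 for Nfkbid (SE 0.17, adjusted p 0.00484), 0.94 for Nfkbie (SE 0.19, adjusted p 0.0129) and 0.72 for Nfkbia (SE 0.20, adjusted p 0.0322). In folds, GR iKO colons had 2.78 times the Tnfaip3 signal, 2.41 times that of Nfkbid, 1.92 times that of Nfkbie and 1.65 times that of Nfkbia. None of these groups overlapped, as the values of each sample above show. The share of all tested probes without overlap between genotypes on DSS was not determined here. Lack of overlap therefore only describes these samples and does not set the members apart from other genes. Nfkbiz was higher by 1.11 (95% confidence interval 0.11 to 2.11) without overlap and was not called (adjusted p 0.127). The subunits were not called, with differences of 0.14 for Rela (−0.11 to 0.40), 0.16 for Relb (−0.31 to 0.62) and 0.07 for Nfkb2 (−0.33 to 0.47).

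These calls rest on 1 spread shared by all arrays, and the spread was larger on DSS. When water and DSS arrays were given separate weights, with a variance 3.43 times larger on DSS, 0 of 8 members were called on DSS, with 4 at an unadjusted p under 0.05. The adjusted p values were then 0.0725 for Nfkbid, 0.0786 for Tnfaip3, 0.114 for Nfkbie and 0.172 for Nfkbia, and only 6 of all 29520 probes were called. With the 6 DSS arrays alone, limma called 0 members and 0 probes, and 5 members had an unadjusted p under 0.05, the same 4 and Nfkbiz. With a spread shared by all arrays, 8763 of all 29520 probes had an unadjusted p under 0.05, and that number was not determined for the other fits. The unadjusted 95% confidence interval of each of these 4 inhibitors lay above 0 under all 3 estimates of the spread. Under scaling to spike-in transcripts the median difference of all probes was 1.25, the subunits being higher than that median by 0.05 to 0.13 and the 4 called inhibitors by 0.70 to 1.45.

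**Figure D3:**
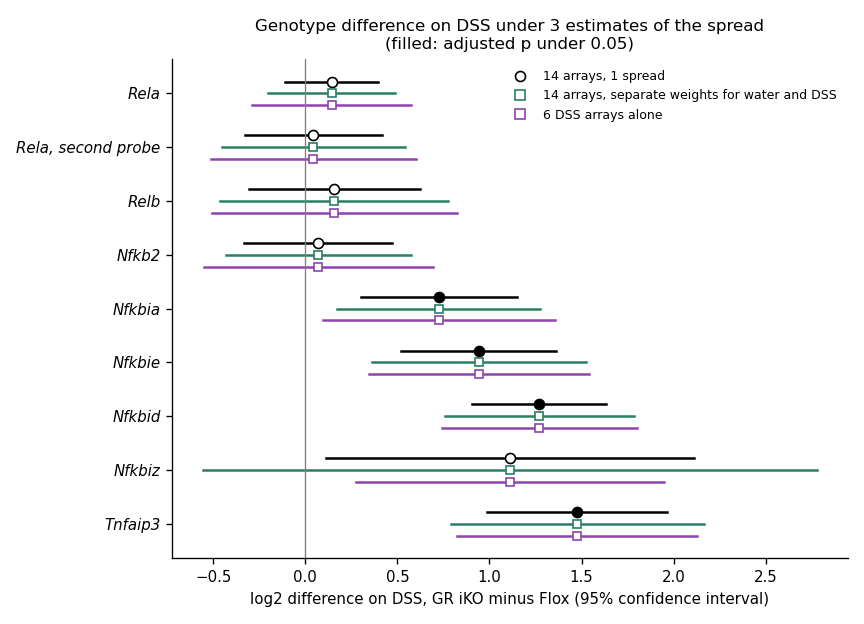
Difference between genotypes on DSS (log2, GR iKO minus Flox, horizontal axis) of each tested member with 95% confidence intervals under 3 estimates of the spread, filled where the adjusted p was under 0.05. The 4 inhibitors Nfkbia, Nfkbie, Nfkbid and Tnfaip3 were called with 1 spread for all 14 arrays and under neither other estimate, and scaling to spike-in transcripts, not drawn here, called all 8 members higher.

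A pair of slides held both genotypes on DSS. Within them, GR iKO minus Flox was 0.85 and 1.42 for Tnfaip3, 1.23 and 1.07 for Nfkbid and 0.65 and 0.89 for Nfkbie. For Nfkbia it was 0.02 and 1.03, and for Nfkbiz 0.15 and 1.39, so these genes differed on 1 of the slides far more than on the other. For Nfkb2 it was −0.30 and 0.19. Every group had its own position on the slides, so position and group cannot be told apart. The call of Nfkbia was lost without Flox DSS replicate 2 (adjusted p 0.114), Flox DSS replicate 4 (0.0654), GR iKO DSS replicate 1 (0.0957) or GR iKO DSS replicate 4 (0.0641), and the calls of Tnfaip3, Nfkbid and Nfkbie held without any 1 array.

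Markers of several cell types differed between the same samples. The summed signal of 7 neutrophil markers, in units of the 75th percentile, was 0.148 to 0.610 on water, 24.0 to 66.7 in Flox with DSS and 78.7 to 279 in GR iKO with DSS, and S100a8 and Csf3r were called higher in GR iKO on DSS, 2 of 6 tested. The receptor gene Cxcr2 and the granule enzyme gene Elane were not well above background on water, nor was Elane on any GR iKO DSS array. The summed signal of 5 smooth muscle markers on DSS was 996 to 1794 for Flox and 339 to 796 for GR iKO, and all 5 were called lower in GR iKO. For 7 macrophage markers the sums on DSS were 10.6 to 18.1 for Flox and 10.7 to 20.6 for GR iKO, and 0 were called by limma, with 0 at an unadjusted p under 0.05. For 6 T cell markers the sums on DSS were 0.547 to 0.874 for Flox and 0.912 to 1.68 for GR iKO, without overlap, and the T cell kinase gene Lck was called higher in GR iKO by 0.86 (adjusted p 0.0278), 1 of 6 tested, with 3 at an unadjusted p under 0.05. For 7 epithelial markers the sums on DSS overlapped, at 652 to 972 for Flox and 757 to 1207 for GR iKO. Epcam, at 0.71 (adjusted p 0.0248), and Cldn3, at 0.60 (adjusted p 0.0197), were called higher in GR iKO by limma. These were 2 of 7 tested, with 5 at an unadjusted p under 0.05. Of all 29520 probes tested, 8763 had an unadjusted p under 0.05 between genotypes on DSS. The part of cell composition in the differences of Tnfaip3, Nfkbid, Nfkbie and Nfkbia was not tested.

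Whether the response to DSS itself differed between genotypes was examined as the interaction, the change with DSS in GR iKO minus that in Flox. In the fit over 14 arrays, limma called 0 of 8 members, and 4 had an unadjusted p under 0.05. Of all 29520 probes tested, 0.112% were called and 5671 had an unadjusted p under 0.05. The interaction was 1.51 for Tnfaip3 (SE 0.30, adjusted p 0.0596), 1.32 for Nfkbid (SE 0.22, adjusted p 0.0511), 0.97 for Nfkbia (SE 0.26, adjusted p 0.0883) and 0.97 for Nfkbie (SE 0.26, adjusted p 0.0882). Nfkbid and Tnfaip3 lay close to the threshold and were called under several other settings, but with separate weights their adjusted p values were 0.124 and 0.139. Both were called without Flox DSS replicate 4 (adjusted p 0.0126 and 0.0277) or GR iKO DSS replicate 4 (0.0427 and 0.0479), and without GR iKO DSS replicate 3 all 4 of these genes were called. The median interaction of the members was 0.95, beside 0.03 over all probes.

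The genes around the members in the NF-kB pathway were described from 4 lists. Of 22 kinases and adaptors, 6 rose and 4 fell with DSS in Flox and 12 rose and 2 fell in GR iKO. Over all probes tested, the shares called higher and lower were 24.4% and 28.2% in Flox and 22% and 22.5% in GR iKO, so the Flox share of these genes that rose was near that of all probes. Myd88, the adaptor of Toll-like and interleukin-1 receptors, rose by 1.10 and 1.39 in Flox and GR iKO, Map3k14, the kinase of the alternative pathway, by 0.95 and 0.76, and the adaptor Traf5 by 0.94 and 0.56. Ikbke, an IkB kinase-related gene, fell by 1.23 and 0.65. The median change of the list was −0.01 in Flox and 0.44 in GR iKO, beside −0.09 and −0.02 over all probes.

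Among 16 tested receptors and ligands, 9 rose and 3 fell in Flox and 11 rose and 1 fell in GR iKO, with medians of 0.77 and 1.21. All probes tested were called higher in 24.4% and 22% of cases and lower in 28.2% and 22.5%. The cytokine genes Il1b and Tnf rose by 5.49 and 2.80 in Flox and by 7.76 and 5.06 in GR iKO. No water array measured Il1a well above background, and its signal on DSS was at least 2.29-fold higher in Flox and at least 23.3-fold higher in GR iKO, a bound set by the lowest measurable signals on the water arrays. The tumor necrosis factor receptor gene Tnfrsf1b rose by 2.28 and 3.62.

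Among 26 tested target genes, 16 rose and 2 fell in Flox and 22 rose and 0 fell in GR iKO, with medians of 1.76 and 2.61. Beside these counts, the shares of all probes were 24.4% higher and 28.2% lower for Flox, and 22% higher and 22.5% lower for GR iKO. By the same bound, the cytokine gene Il6 was at least 55.1-fold and 134-fold higher on DSS in Flox and GR iKO, and the neutrophil chemokine gene Cxcl2 at least 6.25-fold and 57.7-fold. The chemokine genes Cxcl5 and Ccl2 rose by 5.90 and 5.52 in Flox and by 8.06 and 6.36 in GR iKO.

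Among 18 other inhibitors, 5 rose and 2 fell in Flox and 8 rose and 1 fell in GR iKO, with medians of 0.13 and 0.31. The number that rose in Flox was close to the 24.4% of all probes called higher there, and the shares of all probes were 28.2% lower in Flox and 22% higher and 22.5% lower in GR iKO. Dusp1, a phosphatase that acts on stress kinases and a textbook GR target, rose by 1.52 and 1.88 in Flox and GR iKO, and Bcl3, a nuclear IkB family gene, by 1.16 and 1.45. Zfp36, which encodes a protein that destabilizes cytokine mRNA, rose by 0.99 and 1.60, and Irak3, an inhibitor of Toll-like receptor signalling, by 0.69 and 1.33.

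On water, limma called 0 genes of the 4 lists between genotypes, and 0 had an unadjusted p under 0.05. On DSS, 10 of 22 kinases and adaptors, 7 of 16 receptors and ligands, 12 of 26 target genes and 2 of 18 other inhibitors were called higher in GR iKO, and 0 of any list lower. Of all probes tested, 6.44% were called higher, and the number of other inhibitors was not far above that share. All of these calls were absent with separate weights or with the DSS arrays alone. The numbers with an unadjusted p under 0.05 were then 10 and 9 kinases and adaptors and 8 and 6 receptors and ligands. They were 12 and 13 target genes and 4 and 3 other inhibitors. With a spread shared by all arrays, 8763 of all 29520 probes tested had an unadjusted p under 0.05 between genotypes on DSS. That number was not determined for the other fits, so the counts of the lists there are not shown to exceed the share of all probes.

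The called kinases and adaptors differed by 0.46 to 1.42 and included the IkB kinase genes Chuk and Ikbkb, the related kinase genes Tbk1 and Ikbke, the signalling genes Tirap, Irak2 and Ripk1, the adaptor gene Bcl10 and the protease gene Malt1. Malt1 had the largest difference of these, 1.42 (adjusted p 0.00504). The receptors and ligands differed by 0.72 to 3.44 and were Il1a, Tnf, Il1b, Lta, Cd40, Tnfrsf1b and Tlr2. Cd40, a costimulatory receptor of B cells and myeloid cells, was the only gene of the 4 lists called in the interaction, at 1.62 (adjusted p 0.044), and with separate weights no gene of the lists was.

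The called target genes differed by 0.67 to 3.30 and were Cxcl2, Csf3, Ptgs2, Ccl5, Mmp9, Plau, Csf2, Saa3, Traf1, Il6, Birc3 and Ier3. Those with the largest differences were the neutrophil chemokine gene Cxcl2 at 3.30, the neutrophil growth factor gene Csf3 at 3.08 and the prostaglandin synthase gene Ptgs2 at 2.43. The other inhibitors called were Tnip1, a binding partner of the Tnfaip3 product, at 0.75, and the deubiquitinase gene Otud7b at 0.62. Tsc22d3, a textbook GR target that encodes an inhibitor of NF-kB, differed by 0.08 on DSS (adjusted p 0.83) and by −0.21 on water (adjusted p 1.00).

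**Figure D4:**
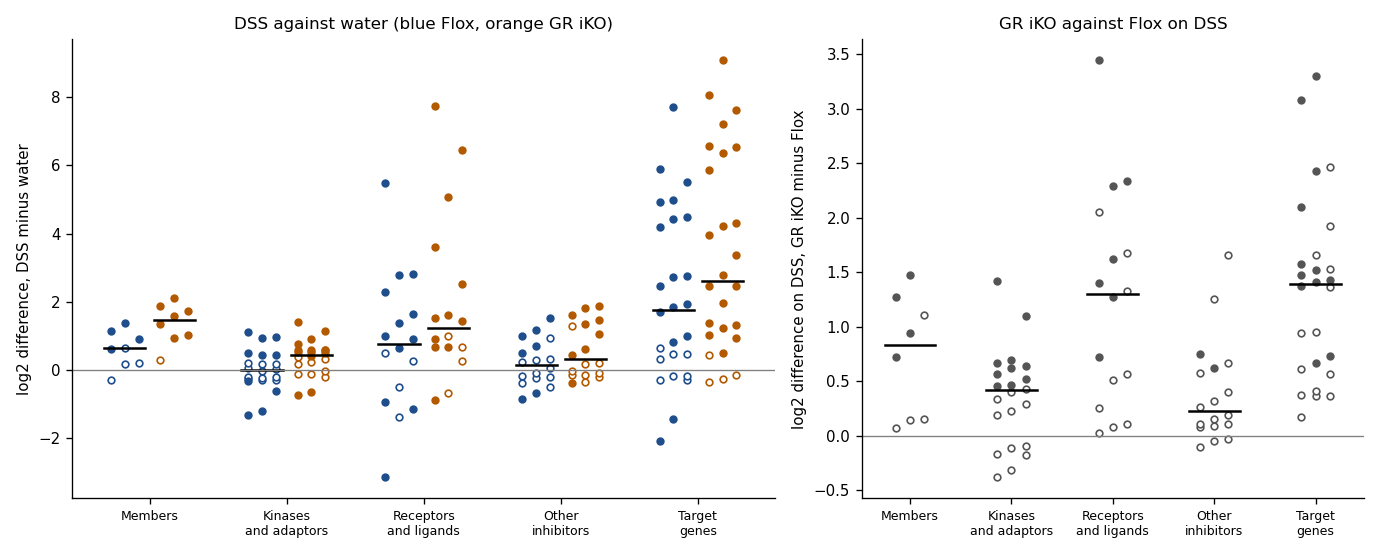
Left, change with DSS (log2 difference) of every tested gene of the members and the 4 pathway lists in Flox (blue) and GR iKO (orange), and right, difference between genotypes on DSS (log2, GR iKO minus Flox). Filled points had an adjusted p under 0.05 in the fit over 14 arrays, black bars are medians, and the medians of the members on DSS were 0.62 in Flox and 1.46 in GR iKO.

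The genes whose levels most resembled a member were found by the root mean square difference over the 14 arrays after each gene was centred on its own mean, among 13293 genes well above background on all arrays. Nfkbie was closest to Cxcl16, a chemokine gene, at 0.11, and to Ubash3b at 0.15. Nfkb2 was closest to Myd88 at 0.13 and Pip4k2a at 0.14, and Rela to Zhx3 and Abl2, both at 0.11.

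Nfkbia was closest to Ptpn1, a phosphatase gene, and Ncf1, both at 0.18, where Ncf1 encodes a subunit of the phagocyte oxidase. For Nfkbid the closest gene was Malt1 at 0.21. For Tnfaip3 the closest were Lcp1, a leukocyte actin-bundling gene, at 0.22 and Cd33, a myeloid surface receptor gene, at 0.23. Nfkbiz was closest to Zc3h12a, a ribonuclease gene of the other inhibitors, at 0.31 and to Gch1 at 0.32. Relb, which varied little, was closest to Zfp512 at 0.12 and Epb41l4a at 0.13. All distances share the same 14 arrays and are descriptions.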

How the data were processed

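Per the labels, total RNA from colon was labelled with Cy3 and hybridized to Agilent 1-colour arrays, and the submitters' processing notes name Agilent Feature Extraction (12.0.0.7 in the file headers) and Partek 6.6. The authors deposited scanner files with a processed intensity for each of 45018 spots, background-subtracted and detrended without scaling between arrays, and a value table of log2 values by the authors. The columns of that table share a median of 6.05 and the same quartiles, as after quantile normalization between arrays, no centring of genes was seen, and their lowest correlation with the log2 intensity of the same array was 0.998. The study's methods for testing its microarrays were not used here, since they stand in a supplement that was not read.

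For the values given here, 1639 control spots were dropped, flagged spots were set to missing, spots of a probe were averaged and log2 processed intensities were scaled to the 75th percentile of each array. Probes well above background on at least 3 of 14 arrays were tested, 29520 of 41174. Accessions of 28223 of 29245 RefSeq probes matched a gene symbol of assembly GRCm38.p6. The array was designed on another build, so no probe positions are given. The brightest probe stood for a gene, and both probes of Rela are given. limma 3.58.1 in R 4.3.3 (lmFit, eBayes, two-sided) was fitted on 14 arrays for 5 comparisons, with 95% confidence intervals, and was tested on simulated data. The alternatives were normexp background correction (offset 50), quantile normalization, the authors' value table, scaling to 8 spike-in probes, 2 other filters on dim probes, slide or replicate number as a block, a weight for water and another for DSS arrays, weights per array, trended and robust eBayes, the mean of all probes of a gene, only the 2 groups compared, and each array left out. The mean signal planned for normexp was not a column of the files, and the median signal was used. No spot was saturated, and the number of arrays limits the precision.

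The members, the pathway lists, the marker lists and the tests were chosen with earlier results of these data known. The text names all members, up to 4 genes per pathway list called in the same direction with DSS in both genotypes with the largest mean change, and any list gene called between genotypes or in the interaction. Some genes that this rule or the likeness measure picked are not reported here. Of the named genes Tsc22d3 was added after its values were seen, as were the marker genes named.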

Additional observations from a re-analysis of the deposited data

How the results depend on the processing

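Across 27 other settings, the members kept their counts of calls within 1.5-fold with DSS in GR iKO and Flox and between genotypes on DSS, except as follows. Scaling to spike-in spots called 8 members lower in Flox with DSS. It called 1 member higher with DSS in GR iKO, 8 higher in GR iKO than Flox on DSS and 8 higher in the interaction. It turned the Flox changes to −1.45 for Nfkbie, −1.23 for Nfkbia, −1.74 for Rela, −1.73 for Nfkbiz, −2.21 for Relb, −0.99 for Nfkb2 and −2.16 for Tnfaip3. The GR iKO change of Rela turned to −0.027, the interaction of Nfkb2 to 1.39 and the genotype difference of Nr3c1 on DSS to 0.39. Between genotypes on DSS, 0 members were called with weights set apart for water and DSS arrays or with only the 2 groups compared. Nr3c1 itself, at −0.80 on water and −0.83 on DSS in both fits, then had adjusted p values on DSS of 0.0922 and 0.226, and on water it was called with separate weights (adjusted p 0.00911) and, at −0.76, with array quality weights. In the interaction, 2 members, Nfkbid and Tnfaip3, were called under quantile normalization, the authors' value table, the stricter filter, array quality weights and trended robust eBayes. Leaving out 1 array gave 0 to 4 members in the interaction, with 2 without Flox DSS replicate 4 or GR iKO DSS replicate 4 and 4 without GR iKO DSS replicate 3. The cause of these shifts was not tested.

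With the replicate number as a block, 4 members were called between genotypes on DSS, but Nfkbia was lost (adjusted p 0.0645) and Nfkbiz gained (adjusted p 0.0361). Deviations of same-numbered samples from their group means correlated at −0.23 to 0.31 over 18 pairs, with a median of 0.10. For the 55 pairs with other numbers the range was −0.28 to 0.25 and the median −0.02. The ranges overlap and the pairs share samples, so these values do not settle whether the numbers pair samples. The block left the calls at 4 with DSS in Flox, 7 with DSS in GR iKO, 0 on water and 0 in the interaction. Of 1072 values of single members, 9 reversed, 24 lost and 35 gained a call, and 32 changed sign with no call under either setting. In GR iKO the change of Nfkbiz with DSS was also not called with array quality weights (adjusted p 0.0811), and in Flox that of Nfkbid was called lower under quantile normalization (adjusted p 0.0379), the authors' value table (0.0372) and array quality weights (0.00767). The 3 arrays in each DSS group limit the precision.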
